A study of Mus musculus with 11 samples.

Results

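The cyclin-dependent kinase (CDK) inhibitors were examined on the arrays as a family of 8 mouse genes, namely Cdkn1a, Cdkn1b, Cdkn1c, Cdkn2a, Cdkn2b, Cdkn2c, Cdkn2d and Cdkn3. Their members were all probes, control probes aside, whose RefSeq transcript in the scanner files belongs to one of these genes, which gave 11 of the 55681 probes on the array and 8 of the 20284 genes that could be named. Cdkn1a, Cdkn2a and Cdkn2b had 2 probes each and the other 5 genes had 1 probe each, and all 11 probes passed the filter on dim probes. Otospheres are cell clusters grown in suspension from the cochlear sensory epithelium (CSE), the part of the inner ear that holds hair cells and supporting cells. The otosphere arrays OS1 to OS6 came from ICR mice of postnatal day 1, with CSE pooled from 10 mice and 20 cochleae per experiment, and the spheres were passaged 1 time after 4 or 5 days and then grown for 4 or 5 days more with N2, B27, bFGF, IGF1, heparan sulfate and ampicillin, without EGF. CSE1 to CSE3 were the tissue itself, taken from pooled ICR mice of the same age after the spiral ligament and stria vascularis had been separated off, and never cultured. The 2 embryonic stem cell (ESC) arrays were 2 lines at passage 13, G4-2 (ES1) and D3 (ES2), grown without feeder cells in serum with LIF, so the spread of the ESC group includes the difference between the lines. The series asks how the otospheres differ from the tissue they came from and from ESCs.

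CDK inhibitors are proteins that hold back the kinases which drive cells through the division cycle. The Cip/Kip proteins p21 (Cdkn1a), p27 (Cdkn1b) and p57 (Cdkn1c) bind many cyclin-CDK complexes, whereas the INK4 proteins p16 (Cdkn2a), p15 (Cdkn2b), p18 (Cdkn2c) and p19 (Cdkn2d) bind CDK4 and CDK6 and keep the Rb protein in its growth-restraining state. Cdkn2a also encodes Arf, in another reading frame, which holds back Mdm2 and so stabilises p53. Cdkn3 is a phosphatase that acts on CDK2, and its mRNA is known to be high in dividing cells. In the cochlea, p27 is known for keeping supporting cells out of the cycle and p19Ink4d for keeping hair cells postmitotic.

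The sequences around the transcription starts of the 3 members whose otosphere mean lay farthest above the CSE mean are shown here, because 2 of these genes are listed with more than 1 start and 2 of them, Cdkn2a and Cdkn2b, are neighbours on chromosome 4. RefSeq's promoter table (GRCm38.p6) held 10 windows for 7 of the 8 genes and none for Cdkn1c, each with 250 bases before a start and 50 bases from it on. Capitals mark the matches to 4 motifs on either strand, which were the TATA box TATAA, the GC box GGGCGG, the E2F site TTTCCCGC and a p53 response element of 20 bases with at most 1 mismatch to its consensus, and no match overlaps another. All windows read 5′ to 3′ along the gene's own strand.
Cdkn1a, upstream start, chr17:29090729-29091028 (+): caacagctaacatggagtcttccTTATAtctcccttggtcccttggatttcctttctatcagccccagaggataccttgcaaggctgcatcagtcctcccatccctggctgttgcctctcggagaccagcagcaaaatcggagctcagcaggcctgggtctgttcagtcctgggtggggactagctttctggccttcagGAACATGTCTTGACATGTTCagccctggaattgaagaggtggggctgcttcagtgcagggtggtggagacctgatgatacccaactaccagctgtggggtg
Cdkn1a, downstream start, chr17:29093519-29093818 (+): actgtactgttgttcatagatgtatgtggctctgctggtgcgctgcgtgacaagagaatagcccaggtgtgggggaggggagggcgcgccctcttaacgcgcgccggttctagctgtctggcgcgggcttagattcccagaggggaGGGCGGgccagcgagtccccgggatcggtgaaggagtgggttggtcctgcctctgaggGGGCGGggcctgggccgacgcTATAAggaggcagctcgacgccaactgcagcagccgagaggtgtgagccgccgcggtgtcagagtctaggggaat
Cdkn2a, upstream start, chr4:89294570-89294869 (-): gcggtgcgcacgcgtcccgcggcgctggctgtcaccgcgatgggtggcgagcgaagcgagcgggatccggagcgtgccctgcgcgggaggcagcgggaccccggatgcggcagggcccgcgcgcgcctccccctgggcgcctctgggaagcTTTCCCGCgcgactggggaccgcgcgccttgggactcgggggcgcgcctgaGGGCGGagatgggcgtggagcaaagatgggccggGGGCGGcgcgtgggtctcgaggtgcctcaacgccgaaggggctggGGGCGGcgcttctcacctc
Cdkn2a, downstream start, chr4:89282143-89282442 (-): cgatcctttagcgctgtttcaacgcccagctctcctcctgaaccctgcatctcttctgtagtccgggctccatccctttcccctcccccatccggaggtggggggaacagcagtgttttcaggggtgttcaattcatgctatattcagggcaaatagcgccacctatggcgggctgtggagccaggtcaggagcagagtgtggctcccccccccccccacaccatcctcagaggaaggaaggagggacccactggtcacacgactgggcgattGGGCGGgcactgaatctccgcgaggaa
Cdkn2b, chr4:89310983-89311282 (-): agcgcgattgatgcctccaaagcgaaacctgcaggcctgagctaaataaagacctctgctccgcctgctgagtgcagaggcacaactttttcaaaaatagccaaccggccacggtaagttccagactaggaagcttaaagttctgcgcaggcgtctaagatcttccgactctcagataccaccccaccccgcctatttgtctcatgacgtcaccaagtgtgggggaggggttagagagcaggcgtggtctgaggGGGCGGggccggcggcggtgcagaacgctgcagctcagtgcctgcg
The upstream Cdkn1a window holds a p53 element at bases -51 to -32 from the start, a match found in 22 of 32851 promoter windows (0.067%), and a TATAA on the opposite strand. The downstream Cdkn1a window holds TATAA at bases -25 to -21 and 2 GC boxes, motifs found in 24.9% and 35.7% of all windows. The upstream Cdkn2a window holds the E2F letters, found in 1.07% of all windows, and 3 GC boxes, and the other Cdkn2a window and the Cdkn2b window hold 1 GC box each. These matches are descriptions of the letters in the windows, and the table does not tie a window to a transcript.

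Of 2 slides, the first held ES1, OS1 to OS3, CSE1 and CSE2 and the second ES2, OS4 to OS6 and CSE3. The spots of an array had a median intensity of 68 to 116 over a local background of 32 to 38 (median), and the scanner software marked 55.1% to 71.6% of them as well above background. OS4 and OS5 differed by less than the noise between spots of a probe (0.445 times that noise among probes above 10 on the log2 scale). OS1 and OS2 were at that noise (1.00 times above 10, 1.14 times above 6 and 0.969 times above 11), and all other same-group pairs, 17 in number, were at 1.56 times or more at every brightness. Each of these pairs was therefore averaged, which gave 4 otosphere, 3 CSE and 2 ESC samples. The labels do not say whether otosphere samples came from separate cultures, so the p-values measure the spread between these samples, which may be in part technical. Levels are log2 signals after quantile normalization, on which 1 unit is a 2-fold difference in signal, and the level of one probe cannot be set against that of another probe. By summed signal the ESC samples stood apart. Their 4 ESC markers summed to 17.34 to 17.65, against 9.31 to 10.93 in otospheres and 9.76 to 10.52 in CSE (log2). Of these markers, Pou5f1, Zfp42 and Dppa5a were lower in otospheres and in CSE than in ESCs. The Nanog probe used here, the kept one with the highest mean signal, went the other way. Its mean levels were 8.38 in ESCs, 9.82 in otospheres and 10.03 in CSE (not called). The authors list Nanog among the genes raised in ESCs alone, so this probe does not stand for the gene. The summed signal of 5 hair cell markers was at least 12.58 in CSE, 10.32 to 11.91 in otospheres and 10.32 to 10.55 in ESCs. All 5 supporting cell markers were well above background on 3 of 3 CSE arrays, and on the otosphere arrays Jag1, Fgfr3, Sox2 and Sox10 were so on 6 of 6 and Prox1 on 0 of 6. Against CSE, 4 of the 5 were lower in otospheres and Sox10 was not called (-0.27, adjusted p = 0.822).

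On these arrays otospheres had more Cdkn2b and Cdkn1a signal than CSE and less Cdkn1c signal. Cdkn1b, Cdkn2a, Cdkn2c, Cdkn2d and Cdkn3 did not pass the test against CSE. The authors' qPCR went otherwise for 2 of these genes. They report no significant Cdkn1a difference of CSE from either ESCs or otospheres, and significantly higher Cdkn2a in otospheres and ESCs. Of the 11 probes, 4 were higher in otospheres, 1 was lower and 6 were not called (limma, adjusted p under 0.05), in a comparison that called 11% of all 47997 probes, 4.84% higher and 6.19% lower. The otosphere and CSE samples did not overlap for 7 of the 11 probes, against 23.4% of all probes. The median log2 difference of the 11 probes was 1.90, beside 0.02 over all probes. This median counts Cdkn1a, Cdkn2a and Cdkn2b with 2 probes each, all with higher means in otospheres. It is the value of Cdkn2a A_55_P2008438, which was not called (limma adjusted p = 0.201), so it does not describe the family by gene. Counted by gene, 2 genes were called higher and 1 lower. Against ESCs, 4 probes of Cdkn1a, Cdkn1b and Cdkn2b were higher in otospheres and none was lower (7 not called, background 27.7%), and 5 of the 11 had an unadjusted p under 0.05, against 37.8% of all probes. Otospheres and ESCs did not overlap for 4 probes, against 46.2% of all probes. Between CSE and ESCs, 3 probes were higher in CSE, 3 were lower and 5 were not called (3 and 1 with an offset of 50 in the background correction, 2 and 4 with arrays scaled to their 75th percentile), against 28.8% of all probes called, and 10 of 11 did not overlap, against 52.2% of all probes. Leaving out any one CSE array left 3 probes called between otospheres and CSE and 2 or 3 between CSE and ESCs, and leaving out ES2 left 1 between otospheres and ESCs. An F-test over the 3 groups called 8 of the 11 probes and 33.8% of all probes. Fewer cells of a type and less RNA per cell cannot be told apart in these bulk samples.

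**Figure D1:**
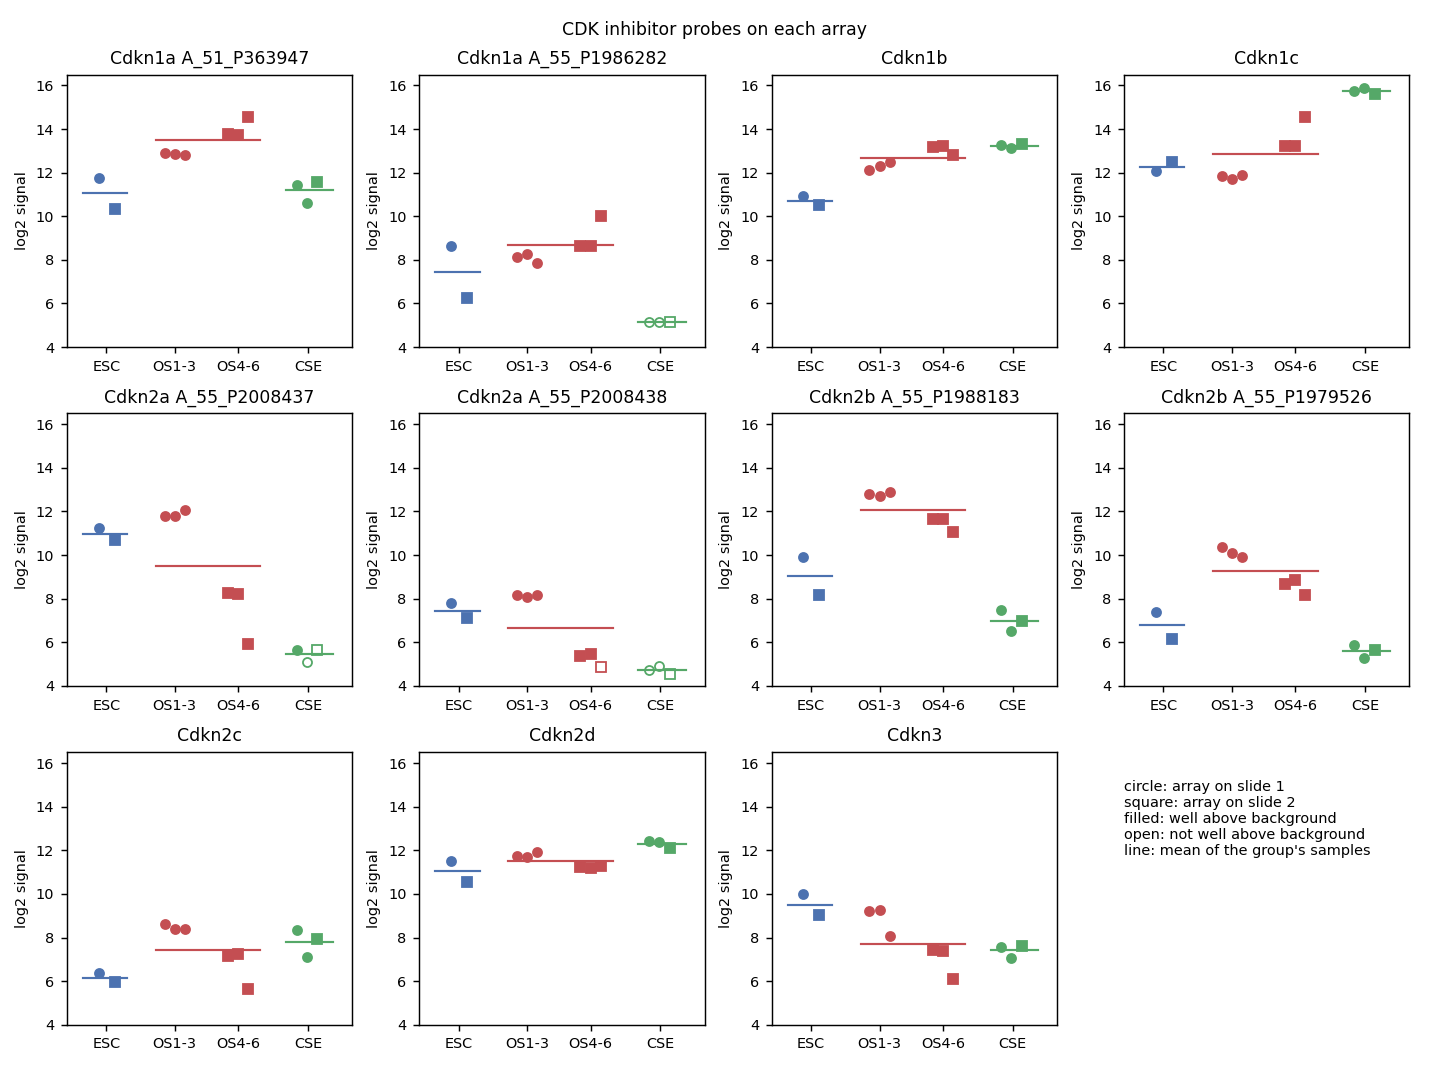
Log2 signal (vertical axis) of the 11 CDK inhibitor probes on each of the 11 arrays, grouped as ESC, OS1 to OS3, OS4 to OS6 and CSE, with circles for slide 1, squares for slide 2, open symbols where a spot was not well above background and a line at the mean of the group's samples. All otosphere symbols of Cdkn2b lie above the CSE and ESC symbols, whereas the Cdkn2a symbols of OS1 to OS3 lie near the ESC level and those of OS4 to OS6 lie lower.

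Cdkn1a encodes p21, the inhibitor best known as a target of p53. Its probe A_51_P363947 (transcript NM_007669, spotted 10 times) read 12.90, 12.87, 12.80, 13.75, 13.74 and 14.56 in OS1 to OS6. CSE1 to CSE3 read 11.43, 10.62 and 11.57 with it, and ES1 and ES2 read 11.74 and 10.35. All otosphere arrays lay above all CSE and ESC arrays, whereas the CSE and ESC levels overlapped. The otosphere samples averaged 13.50 ± 0.83 (SD, n = 4), above the 11.21 ± 0.51 (SD, n = 3) of the CSE samples by a log2 difference of 2.29 (SE 0.50, 95% interval 1.15 to 3.43, 4.89-fold, adjusted p = 0.0201). The difference was 1.81 within slide 1 and 2.58 within slide 2. Otospheres exceeded ESCs by 2.45 (5.45-fold, adjusted p = 0.0112), and CSE and ESCs differed by 0.16 (95% interval -1.20 to 1.52, adjusted p = 0.886), a difference that turned to -0.25 when the arrays were scaled to their 75th percentile. The call against CSE was lost without any one of CSE1, CSE2 or CSE3 (adjusted p = 0.0623, 0.0731 and 0.0514) and without OS4 and OS5 (adjusted p = 0.0593), as well as without empirical Bayes (adjusted p = 0.0787), and the call against ESCs was lost without ES2 (1.75, adjusted p = 0.104). In the authors' own log2 table this probe lay between 1.05 and 1.48 on all arrays, against 10.35 to 14.56 from the scanner files, and both calls were lost there (0.23, adjusted p = 0.503, and 0.25, adjusted p = 0.369). The 372 probes of that table spotted 10 times had a median of -7.70 relative to the scanner values, against -0.17 for 43256 probes spotted once.

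The other Cdkn1a probe, A_55_P1986282 (transcript NM_001111099), read 8.11, 8.27, 7.86, 8.63, 8.65 and 9.99 in OS1 to OS6 and 8.64 and 6.27 in ES1 and ES2. It read 5.16, 5.15 and 5.13 in CSE1 to CSE3 and was well above background on none of these 3 arrays, so that CSE gives a bound only. The otosphere mean was at least 11.1-fold above the floor for CSE. The fitted log2 difference was 3.52 (SE 0.61, 95% interval 2.13 to 4.92, limma adjusted p = 0.00693), with 2.87 within slide 1 and 4.18 within slide 2. This call held under all 19 alternatives, with values of 2.69 to 6.06. Bounds of this kind set the mean of the brighter group against a floor for the dimmer group, which on each array is the higher of the probe's own signal and the lowest signal still marked as well above background. They leave out the spread between samples and the choice of processing. Against ESCs the probe differed from otospheres by 1.22 (95% interval -0.36 to 2.80, adjusted p = 0.244), with -0.61 within slide 1 and 3.05 within slide 2, and the ESC lines differed by -2.37 (D3 minus G4-2). ESCs were at least 4.78-fold above CSE (adjusted p = 0.0436), a call that was lost in 10 of 19 alternatives, among them slide as a block (adjusted p = 0.0617), leaving out any one CSE array (adjusted p = 0.0888 to 0.0971) and leaving out ES1, where the fitted difference was -1.12 (adjusted p = 0.311) in place of -2.31. It was -3.49 without ES2 and -4.48 with arrays scaled to their 75th percentile. Both probes were thus higher in otospheres than in CSE, and whether they differed in the comparison with ESCs was not tested.

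Cdkn1b encodes p27. Its probe read 12.14, 12.29, 12.48, 13.16, 13.22 and 12.80 in OS1 to OS6, 13.25, 13.11 and 13.34 in CSE1 to CSE3 and 10.93 and 10.50 in ES1 and ES2. The order of the means was CSE, otospheres and ESCs, and the first pair overlapped. Otospheres differed from CSE by -0.56 (95% interval -1.11 to -0.0147, adjusted p = 0.210). Both were above ESCs, otospheres by 1.95 (SE 0.27, 3.88-fold, adjusted p = 8.38e-04) and CSE by 2.52 (SE 0.29, 5.72-fold, adjusted p = 2.95e-04), and both calls held under all 19 alternatives. Cdkn1b was the member whose otosphere arrays spread least after Cdkn2d, with an SD of 0.42 over the 4 samples.

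Cdkn1c encodes p57, the product of a maternally expressed imprinted gene. Its probe read 15.76, 15.89 and 15.60 in CSE1 to CSE3. In OS1 to OS6 it read 11.86, 11.70, 11.89, 13.20, 13.21 and 14.54, and in ES1 and ES2 it read 12.05 and 12.48. Every otosphere array lay below every CSE array, and the otosphere levels lay on both sides of the ESC levels. Cdkn1c fell by 2.90 from CSE to otospheres (SE 0.60, 95% interval -4.26 to -1.54, 7.46-fold lower, adjusted p = 0.0157). Within the slides the difference of otospheres from CSE was -3.99 on slide 1 and -1.73 on slide 2. CSE was 3.48 above ESCs (SE 0.72, 11.2-fold, adjusted p = 0.00615), and otospheres and ESCs differed by 0.58 (95% interval -0.96 to 2.13, adjusted p = 0.587). The fall from CSE was lost as a call without any one of CSE1, CSE2 or CSE3 (adjusted p = 0.0630, 0.0530 and 0.0552) and without empirical Bayes (adjusted p = 0.0695). Also lower in otospheres than in CSE were 3 of 5 hair cell, 4 of 5 supporting cell, 3 of 4 neuronal and 5 of 5 erythroid markers. Of the other measured markers, 2 of 3 for Schwann cells and glia, 1 of 6 for fibroblasts, 1 of 3 for endothelium and 1 of 3 for macrophages were lower. In addition, 1 Schwann cell and glia marker and 1 macrophage marker were higher. Over all probes, 6.19% were lower. The summed erythroid signal was 16.93 to 17.97 in CSE, 7.95 to 8.50 in otospheres and 8.88 to 11.82 in ESCs (log2), with Hbb-bt, Hbb-bs and Alas2 well above background on no otosphere or ESC array. The summed supporting cell signal was 14.62 to 15.00 in CSE, 12.78 to 13.85 in otospheres and 12.77 to 13.01 in ESCs, and the summed neuronal signal was 13.58 to 14.99, 11.74 to 13.31 and 12.98 to 13.10. The part of these cells in the Cdkn1c difference was not tested.

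**Figure D2:**
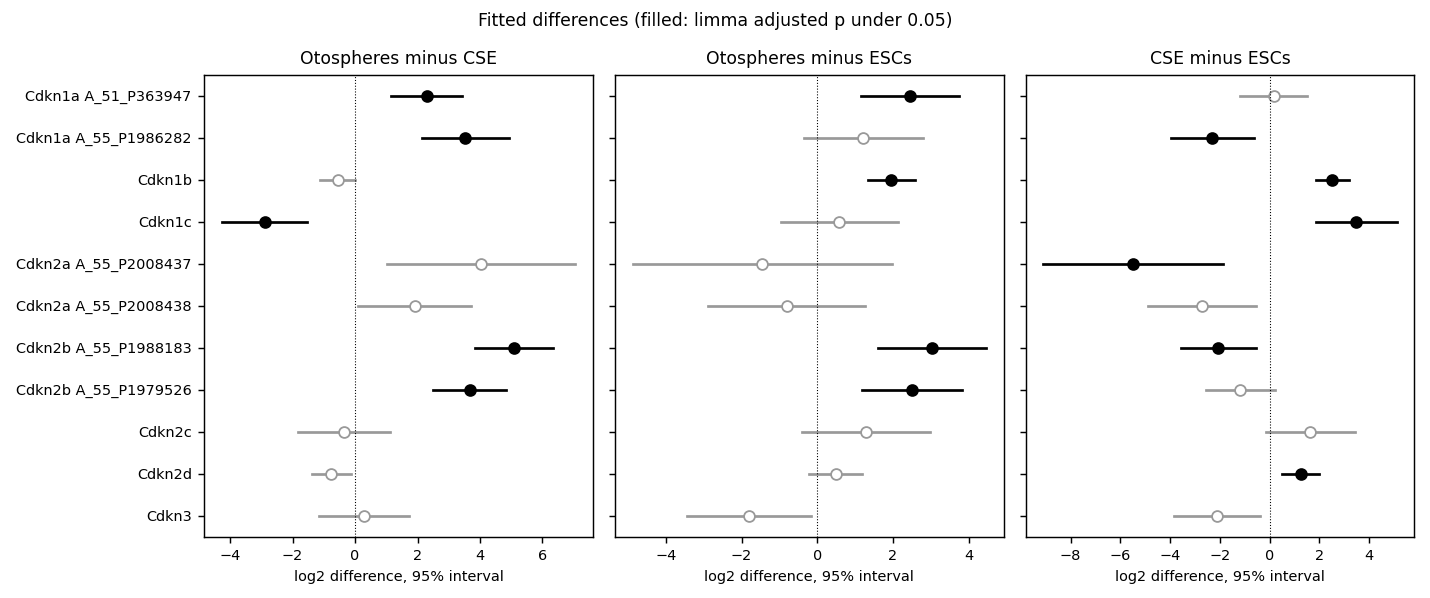
Log2 differences between groups (horizontal axis) with their 95% intervals from the limma fit for each of the 11 probes, for otospheres minus CSE, otospheres minus ESCs and CSE minus ESCs, with filled points where the adjusted p was under 0.05. Both Cdkn2b probes lie to the right in the 2 otosphere panels, Cdkn1c lies to the left against CSE, and the intervals of Cdkn2a are the widest.

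Cdkn2a encodes p16Ink4a and Arf, and its level differed more among the otosphere arrays than that of any other member. Both of its probes are assigned to transcript NM_009877, and the files do not say whether they lie in exons that its transcripts share. Probe A_55_P2008437 read 11.80, 11.79 and 12.06 in OS1 to OS3, 8.24 and 8.22 in OS4 and OS5 and 5.94 in OS6. It read 11.24 and 10.68 in ES1 and ES2 and 5.66, 5.09 and 5.66 in CSE1 to CSE3, of which 1 array was well above background. OS1 to OS3 thus lay above the ESC arrays, OS4 and OS5 lay between ESCs and CSE, and OS6 lay just above the highest CSE array. Probe A_55_P2008438 read 8.17, 8.10, 8.15, 5.35, 5.45 and 4.87 in OS1 to OS6, 7.78 and 7.12 in ESCs and 4.73, 4.93 and 4.56 in CSE, where none of the 3 arrays was well above background. With this probe too, OS1 to OS3 lay above the ESC arrays and OS4 to OS6 below them, and OS6 fell among the CSE arrays.

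Over the 4 otosphere samples Cdkn2a did not pass the test against CSE, where 5 of the 6 readings of its probes were not well above background, so that its differences from CSE have no firm size. Probe A_55_P2008437 had a log2 difference of 4.04 (95% interval 1.02 to 7.06, adjusted p = 0.0971), which was 6.55 within slide 1 and 1.43 within slide 2, and with slide as a block it was 4.42 (adjusted p = 0.0382). Without OS6 the difference was 5.23 (adjusted p = 0.0104). For probe A_55_P2008438 the otosphere mean lay at least 3.03-fold above the floor for CSE, but the samples overlapped. Its fitted log2 difference was 1.90 (95% interval 0.08 to 3.73, limma adjusted p = 0.201, and 0.0423 with slide as a block). Against ESCs the otosphere difference of A_55_P2008437 was -1.45 (adjusted p = 0.538), but 0.69 within slide 1 and -3.59 within slide 2. CSE lay below ESCs by this probe (-5.49, SE 1.59, adjusted p = 0.0299), and the call was lost without any one ESC or CSE array (adjusted p = 0.0672 to 0.125) and without empirical Bayes (adjusted p = 0.0908). By the other probe the ESC mean lay at least 5.31-fold above the floor for CSE. The fitted difference of CSE from ESCs was -2.71 (95% interval -4.89 to -0.53, limma adjusted p = 0.0652, and 0.0108 with slide as a block).

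Cdkn2b, the neighbour of Cdkn2a, encodes p15, an inhibitor known to be induced by TGF-beta. Its probe A_55_P1988183 read 12.80, 12.73, 12.87, 11.66, 11.68 and 11.04 in OS1 to OS6. It read 7.49, 6.51 and 6.98 in CSE1 to CSE3 and 9.92 and 8.18 in ES1 and ES2. The order was otospheres, ESCs and CSE, with no overlap between any of the groups. Otospheres averaged 12.09 ± 0.89 (SD, n = 4), against 6.99 ± 0.49 (SD, n = 3) for CSE, a log2 difference of 5.10 (SE 0.55, 95% interval 3.84 to 6.35, 34.2-fold, adjusted p = 7.27e-04). It was 5.82 within slide 1 and 4.38 within slide 2, and the call held under all 19 alternatives with values of 4.75 to 5.81. Otospheres exceeded ESCs by 3.04 (SE 0.63, 8.21-fold, adjusted p = 0.00630), by 2.16 without ES2 (adjusted p = 0.0610). CSE lay 2.06 below ESCs in the fit (log2 difference -2.06, adjusted p = 0.0451), with -1.18 and an adjusted p of 0.301 without ES1. Of 19 alternatives 9 ended that call, including those without CSE1, CSE2 or CSE3 (adjusted p = 0.0609 to 0.118).

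Probe A_55_P1979526 of the same gene read 10.37, 10.11, 9.91, 8.67, 8.85 and 8.18 in OS1 to OS6, 5.88, 5.29 and 5.64 in CSE1 to CSE3 and 7.41 and 6.15 in ESCs. Every one of these arrays was well above background. The groups were in the same order and again did not overlap. Otospheres were 3.67 above CSE (SE 0.52, 12.7-fold, adjusted p = 0.00250, called under all 19 alternatives, 4.49 within slide 1 and 2.83 within slide 2) and 2.50 above ESCs (5.64-fold, adjusted p = 0.0118, and 0.106 without ES2). CSE and ESCs differed by -1.17 (95% interval -2.57 to 0.23, adjusted p = 0.203).

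The other INK4 genes differed less. Cdkn2c (p18) read 8.63, 8.38, 8.41, 7.16, 7.27 and 5.65 in OS1 to OS6, 8.36, 7.10 and 7.94 in CSE1 to CSE3 and 6.38 and 5.94 in ES1 and ES2. Its otosphere arrays covered the range of both other groups, and it passed no test (otospheres minus CSE -0.36, 95% interval -1.84 to 1.13, adjusted p = 0.865). The difference from CSE was 0.73 within slide 1 and -1.51 within slide 2, and it was 0.24 without OS6. The difference from ESCs was 1.29 (adjusted p = 0.248) and became 1.88 without OS6 (adjusted p = 0.0222). Cdkn2d (p19Ink4d) read 11.75, 11.67, 11.94, 11.23, 11.20 and 11.28 in OS1 to OS6, 12.44, 12.37 and 12.09 in CSE1 to CSE3 and 11.53 and 10.57 in ES1 and ES2. All CSE arrays lay above all otosphere arrays (otospheres minus CSE -0.77, 95% interval -1.39 to -0.15, adjusted p = 0.125, and 0.0375 with slide as a block). CSE exceeded ESCs by 1.25 (SE 0.33, 2.38-fold, adjusted p = 0.0190), but by 0.71 with an adjusted p of 0.203 when the arrays were scaled to their 75th percentile, a setting that moved the median of all probes by -0.19 in this comparison and by -0.25 between otospheres and ESCs. That call was also lost without ES2 (0.77, adjusted p = 0.136) and without CSE1 (1.18, adjusted p = 0.0606).

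Cdkn3, the phosphatase, read 9.23, 9.27, 8.09, 7.44, 7.37 and 6.11 in OS1 to OS6, 7.56, 7.04 and 7.64 in CSE1 to CSE3 and 10.00 and 9.04 in ES1 and ES2. The otosphere arrays ran from the ESC range down to below the CSE range. None of its 3 comparisons passed the test, with log2 differences of 0.30 for otospheres minus CSE (adjusted p = 0.888), -1.80 for otospheres minus ESCs (adjusted p = 0.100) and -2.10 for CSE minus ESCs (adjusted p = 0.0703, and 0.0324 with slide as a block). Against CSE it was 1.37 within slide 1 and -0.88 within slide 2.

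The members were next compared between the otospheres of both slides, that is OS1 to OS3 against OS4 to OS6, where slide and preparation cannot be told apart. All 4 probes of the Cip/Kip genes were higher on slide 2 and all 7 probes of the INK4 genes and Cdkn3 were lower, and for all 11 the 2 samples of one slide lay beyond the 2 samples of the other, which 45.4% of all probes did. The test called 1 of the 11, Cdkn2a A_55_P2008438 (-3.01, SE 0.29, adjusted p = 0.0382), and 0.0896% of all probes (0.0396% lower on slide 2). That call was lost in 10 of its 18 alternatives, among them slide as a block (-2.57, adjusted p = 0.415) and leaving out OS3 (adjusted p = 0.262), OS6 (adjusted p = 0.225) or any one CSE array (adjusted p = 0.0533 to 0.127). The other Cdkn2a probe differed by -4.84 (95% interval -6.31 to -3.37, adjusted p = 0.0562). Next in size came Cdkn1c with 2.04 (adjusted p = 0.0856), Cdkn2c with -2.02 (adjusted p = 0.162) and Cdkn3 with -1.92 (adjusted p = 0.184).

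The other groups give the difference between the slides without otospheres, although slide 2 also held another ESC line. Cdkn2a A_55_P2008437 differed between slides by 0.28 in CSE and by -0.56 in ESCs, against -4.84 in otospheres. Cdkn2b A_55_P1988183 differed by -0.02 in CSE and by -1.75 in ESCs, against -1.47 in otospheres. The Cdkn1a probes were higher on slide 2 in otospheres (1.31 and 1.29) and lower on slide 2 in ESCs (-1.39 and -2.37). When the slide difference of the otospheres was tested against that of the other groups, 0 of 47997 probes passed, and the smallest adjusted p among the members was 0.415 (A_55_P2008438, unadjusted p = 1.31e-04), with 5 of 11 members at an unadjusted p under 0.05, against 7.35% of all probes.

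Summed levels of some cell type markers also differed among the otosphere samples, although no single marker passed the test between the otospheres of the slides. For OS1 with OS2, OS3, OS4 with OS5 and OS6 in turn, the 6 fibroblast and mesenchyme markers summed to 16.75, 17.86, 15.75 and 15.53 (log2), the 3 measured macrophage markers to 14.47, 13.32, 13.01 and 12.40 and the 5 hair cell markers to 10.79, 10.32, 11.62 and 11.91. The 12 proliferation genes summed to 16.15, 15.09, 14.49 and 13.89. The CSE samples spanned 17.19 to 17.94, 12.40 to 12.77, at least 12.58 and 14.90 to 15.58 on these 4 sums, and the ESC samples 11.25 to 11.55, 11.03 to 11.20, 10.32 to 10.55 and 17.60 to 17.69. Within the macrophage list the genes went different ways, with mean levels in otospheres and CSE of 12.52 and 7.02 for Cd14, 11.17 and 12.36 for Csf1r and 7.97 and 9.49 for Aif1. In the same order of samples, supporting cell markers summed to 13.06, 12.78, 13.80 and 13.85. Neuronal markers summed to 11.74, 12.78, 12.18 and 13.31. Those of Schwann cells and glia summed to 13.34, 13.15, 13.56 and 13.33, and endothelial markers to 12.98, 12.97, 12.62 and 13.23. A sum is set mostly by its brightest probes. Mean log2 signals, with each gene centred over the 9 samples, ordered the otosphere samples otherwise for these last lists. They were -0.65, -0.78, -0.51 and -0.63 for supporting cells and -1.86, -2.36, -1.17 and -0.84 for neurons. For Schwann cells and glia they were 0.76, 0.30, -0.33 and -0.41, and for endothelium -0.40, -0.33, -0.60 and -0.46. The 4 sums given first kept their order. The part of these cells and genes in the otosphere differences was not tested.

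**Figure D3:**
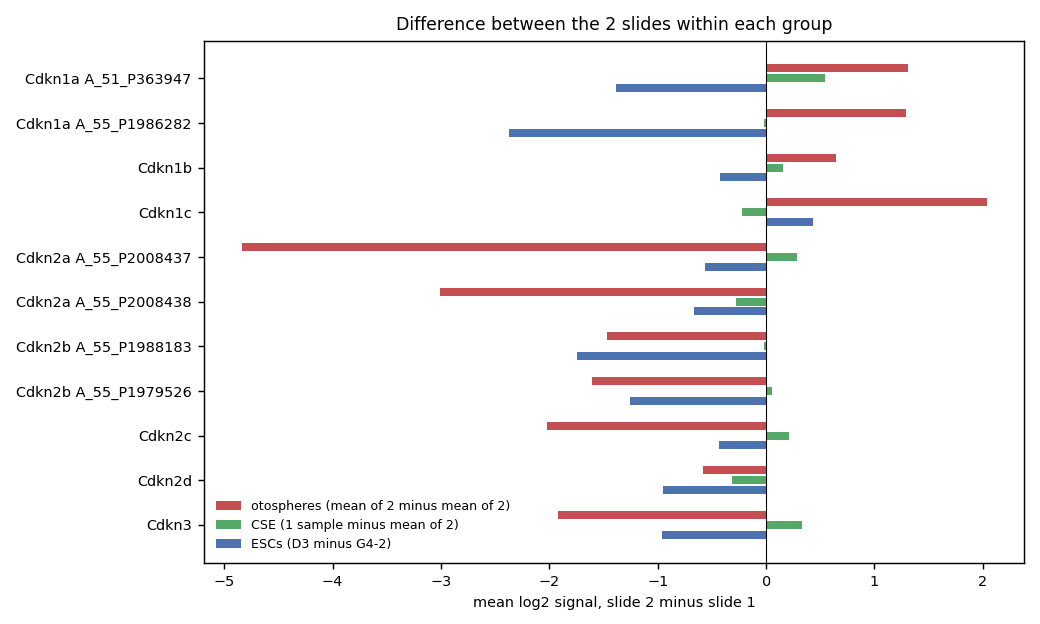
Difference in mean log2 signal between slide 2 and slide 1 (horizontal axis) for each of the 11 probes, within the otospheres (2 samples per slide), CSE (1 sample on slide 2, 2 on slide 1) and ESCs (1 line per slide). The otosphere bars of Cdkn1a, Cdkn1b and Cdkn1c point to slide 2 and all others to slide 1, and the Cdkn2a bars, at -4.84 and -3.01, are the longest.

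For the genes with 2 probes, the difference between the probes was compared between otosphere and CSE samples, which asks whether both probes changed by the same amount. That the Cdkn1a probes disagree was known from these data beforehand, so the p-values for that gene are descriptive only. For Cdkn1a, A_51_P363947 minus A_55_P1986282 was 4.57 to 5.10 in the 4 otosphere samples and 5.47 to 6.44 in the 3 CSE samples, a difference of -1.24 (two-sided exact permutation p = 0.0286, the smallest that 4 samples against 3 allow, adjusted over the 3 genes p = 0.0429). The CSE values of A_55_P1986282 were not well above background, so this contrast depends on the background correction. It was -0.42 with an offset of 50 (adjusted exact permutation p = 0.200) and -3.67 with arrays scaled to their 75th percentile (adjusted exact permutation p = 0.0857). The -4.15 in the authors' table (adjusted exact permutation p = 0.0429) cannot show unequal change. There A_51_P363947 lay between 1.05 and 1.48 on all arrays, so that value is set by the other probe. For Cdkn2b, A_55_P1979526 minus A_55_P1988183 was -2.97 to -2.52 in otospheres and -1.61 to -1.21 in CSE, a difference of -1.43 (exact permutation p = 0.0286, adjusted p = 0.0429), and it was -0.59 when the processed signals were scaled to the 75th percentile (exact permutation adjusted p = 0.0857). For Cdkn2a, where 5 of 6 CSE readings were not well above background, the difference was 2.13 (exact permutation p = 0.0857), with OS6 among the CSE values. Over the 9 samples the probes of a gene correlated with r = 0.826 for Cdkn1a, 0.978 for Cdkn2a and 0.991 for Cdkn2b, as a description of arrays that share these groups.

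**Figure D4:**
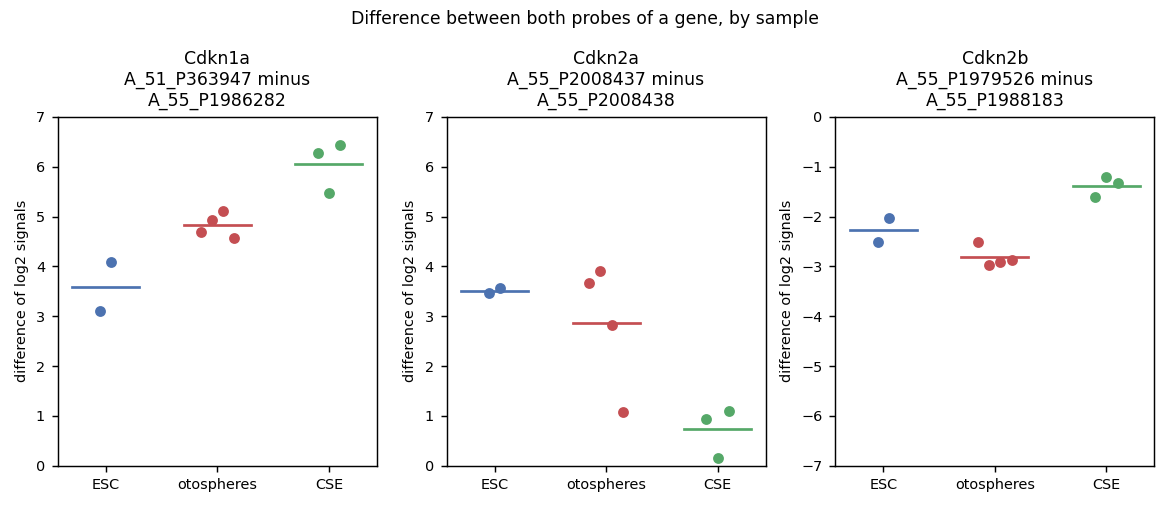
Difference between the log2 signals of both probes of Cdkn1a, Cdkn2a and Cdkn2b (vertical axis) in each of the 9 samples, with a line at the group mean. Otosphere and CSE samples do not overlap for Cdkn1a and Cdkn2b, and for Cdkn2a the value of OS6, 1.07, lies among the CSE values.

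The targets and partners of these inhibitors were described by lists. Of 14 measured CDKs and cyclins, 1 was higher in otospheres than in CSE and none was lower, with a median log2 difference of 0.06. That gene was Ccnd1, which encodes cyclin D1, the partner of CDK4 and CDK6, with mean levels of 14.88 in otospheres, 13.04 in CSE and 12.61 in ESCs (1.84, SE 0.20, 3.58-fold, adjusted p = 7.43e-04). Against ESCs, 2 of the 14 were higher, Ccnd1 (2.27, adjusted p = 1.50e-04) and Ccnd2 (3.03, adjusted p = 6.13e-04), and 7 were lower, with a median of -1.21. Ccnd2 was named after its values had been seen, as were Mdm2, Rb1, Rbl2, Bmi1, Cbx7 and Ezh2.

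Of 13 Rb and E2F genes, 1 was higher in otospheres than in CSE and 1 was lower. E2f5, a member of the repressive E2F group, rose by 1.27 (SE 0.21, adjusted p = 0.00603), and E2f2, an activating E2F, fell by 1.31 (SE 0.31, adjusted p = 0.0260). Against ESCs, Rb1 (1.55, adjusted p = 0.00851) and Rbl2 (1.83, adjusted p = 5.36e-04), both pocket proteins that CDKs inactivate, were higher in otospheres, 7 genes were lower and 4 were not called. The median was -1.70, beside -0.03 over all probes.

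Of 17 measured regulators of CDK inhibitor genes or proteins, 3 were higher in otospheres than in CSE, 1 was lower and 13 were not called. Myc, which represses Cdkn1a and Cdkn2b in other cells, rose by 1.67 (SE 0.42, adjusted p = 0.0373), Trp53, which encodes p53, rose by 0.99 (SE 0.27, adjusted p = 0.0480) and Mdm2, a p53 target and its ubiquitin ligase, rose by 0.77 (SE 0.14, adjusted p = 0.00790). Foxo1, a forkhead factor known to induce Cdkn1b, fell by 0.74 (SE 0.20, adjusted p = 0.0447). Against ESCs, 1 of the 17 was higher in otospheres, 8 were lower and 8 were not called (median -0.60). The gene that rose was Bmi1, a Polycomb protein that represses the Cdkn2a locus (2.76, adjusted p = 2.93e-04), and it was also higher in CSE (2.99, adjusted p = 2.50e-04). Cbx7 (-2.78, adjusted p = 1.37e-05) and Ezh2 (-2.02, adjusted p = 0.00379), which encode other Polycomb proteins, were lower in otospheres than in ESCs. The levels of Bmi1 were 7.86 in ESCs, 10.62 in otospheres and 10.85 in CSE. Trp53 was lower in otospheres than in ESCs (log2 difference -2.53, adjusted p = 3.86e-04).

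None of 12 proliferation genes, among them Mki67, Pcna and Plk1, passed the test between otospheres and CSE (median -0.25). Against ESCs, 10 of the 12 were lower in otospheres and 10 of 12 were lower in CSE, with medians of -3.30 and -3.22. Between the otospheres of the slides none of the 12 passed the test, with a median of -1.78.

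**Figure D5:**
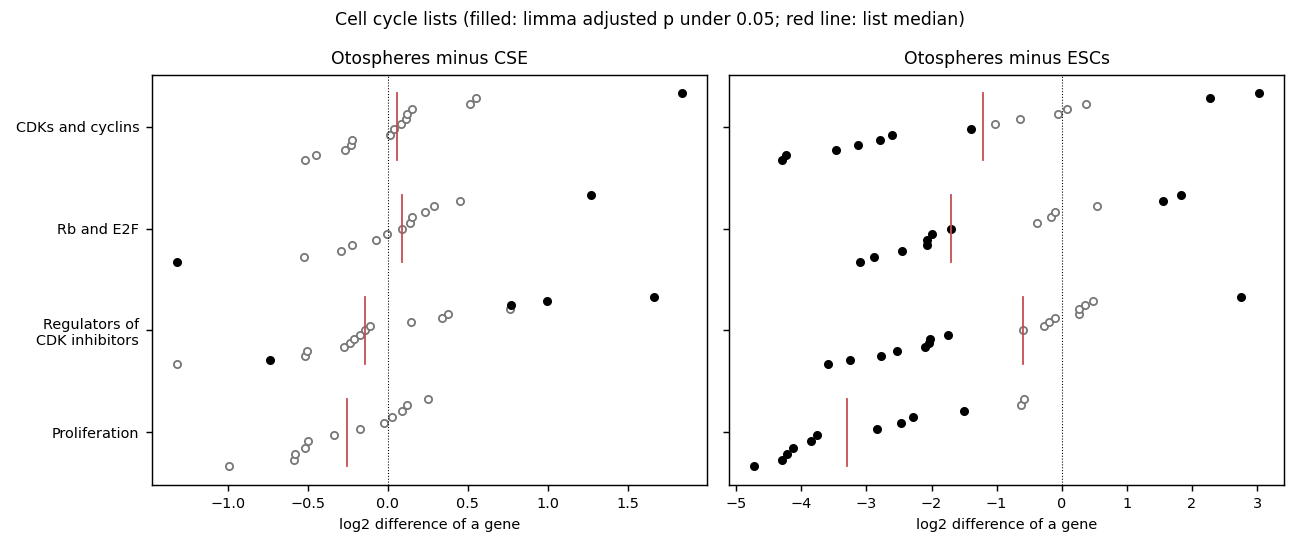
Log2 difference (horizontal axis) of each measured gene of 4 lists (CDKs and cyclins, Rb and E2F, regulators of CDK inhibitors, proliferation) for otospheres minus CSE and otospheres minus ESCs, filled where the adjusted p was under 0.05, with the list median as a red line. Against CSE few points are filled and the medians lie between -0.25 and 0.09, whereas against ESCs 10 of 12 proliferation genes are filled and lie to the left.

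The patterns of the members over the 9 samples were described by correlation between their probes with the highest mean signal, which share arrays and groups. Cdkn1c and Cdkn2a ran opposite to each other (r = -0.98), and Cdkn2a and Cdkn3 (r = 0.79) and Cdkn1a and Cdkn2b (r = 0.76) ran together. Among 14191 named probes with an SD of at least 0.5, the 3 genes most like each member were taken. They were P2rx3, Atoh1 and Espnl for Cdkn1c, with Atoh1 at r = 0.973 and mean levels of 5.09 in ESCs, 6.15 in otospheres and 9.29 in CSE. They were E2f1, Pimreg and Ankle1 for Cdkn3, with E2f1 at r = 0.975. For Cdkn2b they were H2-Q2, Adam8 and H2-Q10, with Adam8 at 9.25 in ESCs, 12.88 in otospheres and 7.06 in CSE (r = 0.991). For Cdkn2a they were Slc39a14, Icam1 and Galnt12, for Cdkn1a Dok1, Rras and Plekhg6, for Cdkn1b Dgcr2, Sipa1l1 and Lrba, for Cdkn2c Cntnap1, B3gnt9 and Cygb, and for Cdkn2d Snx25, Soga1 and Rgs3. All 24 correlations lay between 0.968 and 0.995. Values this high come with taking the highest of 14191 probes over 9 samples, and shared regulation was not tested.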

How the data were processed

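RNA of 11 samples, 50 or 100 ng each, had been labelled with Cy3 and hybridized to single-colour Agilent mouse arrays. The deposited scanner files hold median signal and background intensity per spot on a linear scale, written by Feature Extraction 10.7.3.1 with no scaling across arrays, and a processed intensity that the authors' scanner software had background-subtracted. The authors also deposited a log2 table, background-corrected and quantile-normalized with limma and filtered on dim probes, which served as an alternative. Its probes spotted several times mostly have lower values than in the scanner files.

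Here, the background of median intensities was removed by normexp (offset 16) in limma 3.58.1 (R 4.3.3) and the values converted to log2 and quantile-normalized over 11 arrays. Control and outlier spots were dropped, and repeated spots of one probe averaged. The filter kept 47997 of 55681 probes, those that on 2 or more arrays exceeded the 95th percentile of 308 negative controls by 10% or more. Names came from RefSeq transcripts (26762 probes). A limma model over 4 otosphere, 3 CSE and 2 ESC samples gave all contrasts, with p-values adjusted after Benjamini and Hochberg across all kept probes and called under 0.05. Where 2 arrays within a group differed by about the noise between spots, they were averaged. For the slide contrast the otosphere mean was split by slide. The test was checked on simulated data. The number of arrays limits the precision.

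The genes described were all members, up to 2 rises and 2 falls per list between CSE and otospheres, and for each member the 3 genes with the highest Pearson correlation. A gene's list value is that of its kept probe with the highest mean signal. The members and lists were chosen with earlier results of these data known. Alternatives were offsets of 0 and 50, the processed signal scaled to its 75th percentile, the authors' table, other filters (at least 3 arrays, or none), every array as a sample, slide or replicate number as a block, no empirical Bayes and leaving out each sample. The sequence of the probes was not used here.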

Additional observations from a re-analysis of the deposited data

How the results depend on the processing

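Of 867 values of single CDK inhibitor probes under an alternative, 749 kept their direction and side of the threshold, 70 lost a call, 38 gained one and 10 changed sign. The numbers of probes called between CSE and ESCs, between otospheres and ESCs and over the 3 groups moved by less than 1.5 times under every alternative that could be run. Of 7 pairs of arrays with the same replicate number, 1 deviated together (r = -0.39 to 0.36), so the numbers do not pair the samples. OS4 to OS6 share their replicate numbers with no array of another group. A fit with the number as a block therefore compared only OS1 to OS3, the otospheres of slide 1, with the other groups. With the replicate number as a block and every array a separate sample, 8 of the 11 probes were called between otospheres and CSE, against 4570 of all 47997. Between CSE and ESCs 10 of the 11 were called, against 11987 of all. In that fit the sign changed for Cdkn2c between otospheres and CSE (0.67, from -0.36). Between otospheres and ESCs it changed for Cdkn1c (-0.44, from 0.58), Cdkn2a A_55_P2008437 (0.83, from -1.45) and Cdkn2a A_55_P2008438 (0.74, from -0.81). With slide as a block, 8 of the 11 probes were called between otospheres and CSE, against 5592 of all 47997. Cdkn2d then differed between the otospheres of the slides by 0.0074, from -0.58, once the slide difference of the other groups was taken off. Without empirical Bayes, 3 of the 11 probes were called between otospheres and CSE, against 3564 of all 47997. Between CSE and ESCs 3 were called, against 12042 of all. With an offset of 50 or arrays scaled to their 75th percentile, 0 probe pairs were called, and with the latter Cdkn1a A_51_P363947 differed by -0.25 between CSE and ESCs, from 0.16.

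Leaving out each otosphere or CSE sample in turn gave 3 to 6 of the 11 probes called between otospheres and CSE. Between otospheres and ESCs 4 to 5 were called, against 10970 to 13289 of all 47997 probes. Between CSE and ESCs 2 to 9 were called, against 11042 to 14156 of all. These fits called 0 probe pairs, since the exact test then has too few samples to pass. Over all probes, 2945 to 5926 were called between otospheres and CSE, from 5294, with 2945 without CSE1, 3213 without CSE3 and 3474 without OS4 and OS5, and 7958 were called with every array a separate sample. Cdkn1a A_51_P363947 between CSE and ESCs ran from -0.54 without ES2 to 0.85 without ES1, with -0.02 without CSE3, Cdkn2c between otospheres and CSE from -0.71 without OS1 and OS2 to 0.24 without OS6, and Cdkn3 between the same groups from -0.21 without OS1 and OS2 to 0.83 without OS6 (0.30 with all samples). The cause of these changes was not tested.

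The 43 probes called between the otospheres of the slides (24 higher on slide 2, 19 lower) became 5 with an offset of 0 (4 and 1), 104 with an offset of 50, 0 with arrays scaled to their 75th percentile, 5 in the authors' table (4 and 1), 20 with no filter, 2644 with every array separate, 0 with slide as a block, 1 without empirical Bayes and 0 to 633 when a sample was left out, with 0 without OS3, OS6 or CSE1, 4 without CSE3, 9 without CSE2, 387 without OS1 and OS2 and 633 without OS4 and OS5. The replicate block could not be run for this contrast, nor the slide block, the replicate block or the fit without empirical Bayes for the probe pairs. In CSE, Cdkn1a A_55_P1986282 and Cdkn2a A_55_P2008438 were well above background on no array and give bounds only, and Cdkn2a A_55_P2008437 was so on 1 of 3.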
